A study of Mus musculus with 8 samples.

Results

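Integrins, ICAM-1, CD44 and CD43 form the adhesion equipment that B cells use to hold on to other cells and to matrix. The 10 genes described here encode 3 integrin α chains (Itga4, Itgal, Itgav), 4 integrin β chains (Itgb1, Itgb2, Itgb3, Itgb7), the integrin ligand ICAM-1 (Icam1), the hyaluronan receptor CD44 (Cd44) and the sialomucin CD43, or leukosialin (Spn). They were chosen by symbol, and all 10 were found among the 26589 genes of the deposited table. An integrin is a heterodimer of an α and a β chain, and both chains contribute to the choice of ligand. The α4 chain pairs with β1 to bind VCAM-1 and fibronectin and with β7 to bind the gut addressin MAdCAM-1, while αL with β2 forms LFA-1, the receptor of ICAM-1. In the spleen, LFA-1 and α4β1 together keep marginal zone B cells in place. CD43 is low on resting follicular B cells and is found on B-1 cells, activated B cells and plasma cells.

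The libraries came from splenic B cells of IL-10-eGFP Tiger mice, in which a green fluorescent reporter is tied to the Il10 gene. The cells spent 48 h in culture with lipopolysaccharide (LPS) at 3 µg/ml, a bacterial B cell mitogen, before sorting into IL-10+ and IL-10- cells, with 4 bulk RNA libraries each. Both groups therefore share the strain, the culture and the lipopolysaccharide, and were separated by the reporter signal. The protocols give the LPS, although the treatment field says untreated. No unstimulated cells were analysed here. Values are FPKM, read density scaled to gene length and library size. They allow levels to be compared between genes only as far as the length used fits the RNA present. The library totals recovered from them were 27380398 to 29968285 reads. Whether a replicate number marks a mouse or a culture is not stated, so p-values reflect only library-to-library spread, part of which may be technical.

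Il10 checks the sort and is no finding. It stood at 32.0, 44.4, 35.2 and 35.8 FPKM in IL-10+ replicates 1 to 4 and at 1.28, 2.86, 3.77 and 4.76 FPKM in IL-10- replicates 1 to 4. Markers of B cells were high in every library. Summed over 6 genes they stood at 1168 to 1468 FPKM in IL-10+ and 1267 to 1706 FPKM in IL-10- cells. By the limma test described below, 2 of the 6 fell in IL-10+ cells and 0 rose. Of all tested genes 9.18% fell and 10.6% rose. With the replicate number as a block in the fit, 5 of the 6 fell and 1 rose, beside 33.3% and 20.4% of all tested genes. Plasmablast markers moved with the groups, and 5 of 5 tested rose, with and without the block. Of all tested genes 10.6% rose, and 20.4% with the block. Their sum over 6 genes was 435.2 to 484.5 FPKM in IL-10+ cells against 105.6 to 135.8 FPKM, and Prdm1, the regulator Blimp-1, stood at 51.1 ± 1.61 against 6.89 ± 2.54 FPKM (SD, n = 4). The part of plasmablast content in the changes given here was not tested, and in bulk RNA a different number of cells of a type cannot be told apart from a different amount of RNA per cell. Of the markers of T and NK cells 8 of 9 stayed under 1 FPKM in every library, as did 8 of 9 of monocytes, macrophages and dendritic cells, 5 of 6 of neutrophils, 5 of 5 of platelets and 5 of 6 of stroma and endothelium. The exceptions were Lck, Flt3, S100a9 and Pecam1, and of these Lck fell in IL-10+ cells. With the block Flt3 and Pecam1 were called lower as well, and S100a9 was not tested. The summed T and NK markers were 1.61 to 2.88 FPKM in IL-10+ and 4.40 to 5.43 FPKM in IL-10- cells, those of monocytes, macrophages and dendritic cells 7.76 to 12 and 9.77 to 15.6 FPKM, and those of stroma and endothelium 8.10 to 16.4 and 13.6 to 25.9 FPKM. Neutrophil markers summed to at most 0.482 and 1.37 FPKM and platelet markers to at most 0.684 and 0.290 FPKM.

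The promoters of the 4 genes that rose or fell (Spn, Itga4, Cd44 and Itgb1) are shown so that they can be set beside each other, and that of Icam1, which did not pass the test, is shown for its NF-κB match. Each is the 250 bases before the RefSeq start on build GRCm38.p6, written 5′ to 3′ on the strand of the gene. Capitals mark a match to AGGAAGT, a core of ETS factors, or to GGAANTTCC, an NF-κB form, on either strand. The regions are chr7:127137824-127138073 (minus strand) for Spn, chr2:79255176-79255425 (plus) for Itga4, chr2:102901666-102901915 (minus) for Cd44, chr8:128685404-128685653 (plus) for Itgb1 and chr9:21015690-21015939 (plus) for Icam1.
Spn: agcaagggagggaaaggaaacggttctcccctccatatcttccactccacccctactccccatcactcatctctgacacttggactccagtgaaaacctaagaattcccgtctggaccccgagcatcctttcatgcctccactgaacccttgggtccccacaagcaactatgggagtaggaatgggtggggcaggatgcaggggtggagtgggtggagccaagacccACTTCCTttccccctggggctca
Itga4: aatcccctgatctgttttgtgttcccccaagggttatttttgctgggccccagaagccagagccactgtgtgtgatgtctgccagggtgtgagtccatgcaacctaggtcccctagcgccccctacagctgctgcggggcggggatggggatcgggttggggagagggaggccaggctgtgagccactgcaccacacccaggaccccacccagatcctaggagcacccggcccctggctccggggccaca
Cd44: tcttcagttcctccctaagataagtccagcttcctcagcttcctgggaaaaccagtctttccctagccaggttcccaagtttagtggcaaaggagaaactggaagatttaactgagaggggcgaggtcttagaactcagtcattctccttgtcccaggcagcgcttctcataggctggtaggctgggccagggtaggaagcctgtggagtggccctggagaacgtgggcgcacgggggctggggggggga
Itgb1: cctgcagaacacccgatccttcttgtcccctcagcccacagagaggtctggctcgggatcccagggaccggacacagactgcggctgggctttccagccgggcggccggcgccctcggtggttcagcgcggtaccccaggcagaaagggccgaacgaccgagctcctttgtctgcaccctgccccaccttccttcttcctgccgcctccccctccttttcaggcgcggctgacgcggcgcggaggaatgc
Icam1: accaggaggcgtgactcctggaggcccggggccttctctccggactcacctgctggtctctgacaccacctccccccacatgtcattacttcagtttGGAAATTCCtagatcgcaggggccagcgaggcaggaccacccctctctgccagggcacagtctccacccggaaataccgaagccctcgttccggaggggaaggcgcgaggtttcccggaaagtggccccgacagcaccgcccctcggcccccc

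The Icam1 promoter holds GGAAATTCC, which starts 153 bases before the RefSeq start. Of the 32851 promoter windows in the RefSeq table, 0.813% hold such a match. In Spn the match is ACTTCCT, the other strand of the ETS core, 23 bases before the start, and 7.69% of the windows hold one. Among the 7 of 10 genes with an entry, only Icam1 has the NF-κB form and only Itgav and Spn have the ETS core. Letters of a Blimp-1 form (in 0.393% of the windows) and of an XBP1 form (TGACGTGG, in 0.563%) are in none of these 7 windows on either strand. A match is a description of letters only.

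In IL-10+ cells Spn, Itga4 and Cd44 rose and Itgb1 fell, while the other 6 genes did not pass the test. Spn was 2.97-fold, Itga4 1.67-fold and Cd44 1.35-fold higher, and Itgb1 was 1.22-fold lower, as ratios of group means in FPKM. The test was limma on log2(FPKM + 1) over 11329 genes, with a call at a Benjamini-Hochberg adjusted p under 0.05. Of all tested genes 19.7% were called, 10.6% as higher and 9.18% as lower, against 4 of the 10 here (3 higher, 1 lower). Libraries of the same replicate number deviated together, and with the number as a block in the fit 9 of the 10 passed (5 higher, 4 lower). In that fit 53.7% of all genes passed, 20.4% higher and 33.3% lower. In 5 of the 10 genes (Spn, Itga4, Cd44, Itgb2, Itgb1) the groups did not overlap, which held for 25.2% of all tested genes (12.2% higher and 13.0% lower). The median log2 change of the 10 genes was 0.13, beside -0.06 over all tested genes.

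**Figure D1:**
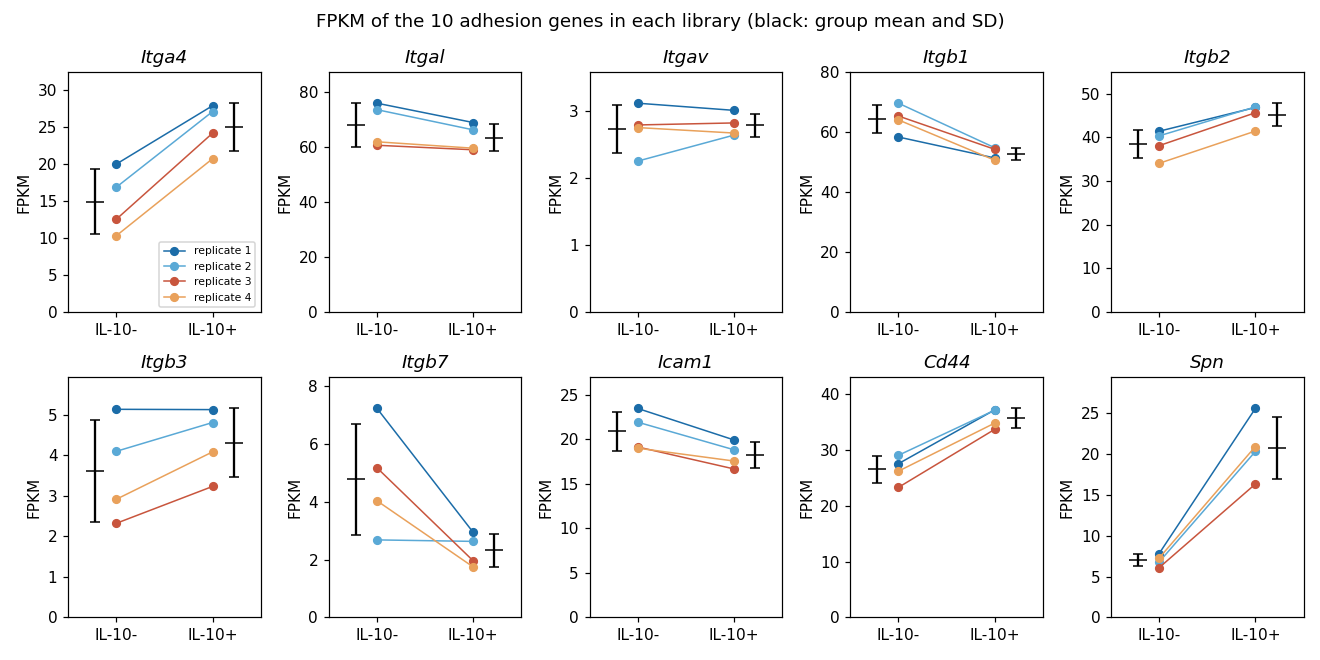
FPKM (vertical axes, from 0) of each of the 10 genes in IL-10- and IL-10+ libraries, with lines joining libraries of the same replicate number and black bars for the group mean and SD (n = 4). Spn lies at 16.3 to 25.6 FPKM in IL-10+ cells against 6.09 to 7.83 FPKM, and the 4 lines of Itga4 all climb while those of Itgb1 all descend.

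The α4 chain and its partners were measured first among the integrins. Itga4 (ENSMUSG00000027009, chromosome 2, 79255426 to 79333123 of GRCm38) stood at 27.9, 27.1, 24.2 and 20.7 FPKM in IL-10+ replicates 1 to 4 and at 20.0, 16.9, 12.5 and 10.3 FPKM in IL-10- replicates 1 to 4. Every IL-10+ library was above every IL-10- library, though IL-10+ replicate 4 and IL-10- replicate 1 came close. The log2 change of FPKM + 1 was 0.74 (SE 0.191, limma adjusted p = 0.0274), and 0.00118 was the adjusted p with the block. Within the numbers the log2 difference was 0.46, 0.65, 0.89 and 0.94 for replicates 1 to 4. The call ended without IL-10+ replicate 1 (limma adjusted p = 0.0641), 2 (0.0761) or 3 (0.0630), without IL-10- replicate 3 (0.0721) and without a filter on low values (0.0680). Exons of Cerkl on the opposite strand cover 8.04% of the exonic bases of Itga4, and Cerkl itself was at 0.408 ± 0.139 against 0.415 ± 0.143 FPKM (SD, n = 4).

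Itgb1, the β chain shared by most matrix receptors (chromosome 8, 128685654 to 128733200), went the other way. Its values were 51.5, 54.9, 54.4 and 50.7 FPKM in IL-10+ and 58.4, 69.7, 65.4 and 64.2 FPKM in IL-10- replicates 1 to 4. The highest IL-10+ library lay below the lowest IL-10- library. The log2 change was -0.28 (SE 0.0702, limma adjusted p = 0.0239; 0.00166 with the block), lower in 4 of 4 replicate numbers. The call was lost on removal of single libraries in 6 of 8 cases (limma adjusted p = 0.0114 to 0.0677 over the 8) and with median-of-ratios scaling (0.0689). It was kept without IL-10+ replicate 2 (0.0493) or IL-10- replicate 1 (0.0114). Within replicates 1 and 2 alone the call was also lost (limma adjusted p = 0.256), and within replicates 3 and 4 alone it was kept (0.0219).

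Itgb7, the β chain of the gut-homing integrin α4β7 (chromosome 15, 102215995 to 102231944), was low in both groups. It stood at 2.94, 2.63, 1.96 and 1.75 FPKM in IL-10+ and at 7.24, 2.69, 5.18 and 4.04 FPKM in IL-10- replicates 1 to 4. IL-10- replicate 2 fell within the range of the IL-10+ libraries, and the other IL-10- libraries lay above it. The log2 change was -0.76 (SE 0.235) with a limma adjusted p of 0.0555, and 0.0183 with the block. Without IL-10- replicate 2 the adjusted p was 0.0160 and the log2 change -0.95. Only 1 of the 8 values of Itgb7 gave whole reads with its GENCODE length, against 8 of 8 for each of the other 9 genes, so the length the authors used for it may differ and its level against other genes is less certain.

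Because the chains of a dimer are made from separate genes, ratios between them were taken in each library on the scale of FPKM + 1. Itga4 stood at 0.472 ± 0.0581 of Itgb1 in IL-10+ and 0.234 ± 0.0794 in IL-10- cells (ratio of FPKM, SD, n = 4), a log2 difference of 1.02 with no overlap. Against Itgb7, Itga4 was 11 ± 1.34 times as high in IL-10+ and 3.51 ± 1.86 times in IL-10- cells, a log2 difference of 1.49. Both ratios gave an exact two-sided permutation p of 0.0286, the smallest that 4 against 4 allows. After Benjamini-Hochberg adjustment over the 6 ratios compared it was 0.0571, so neither passed. At that smallest p the adjusted value is set by how many of the 6 ratios reach it. Not passing therefore does not decide on either ratio by itself. Without IL-10- replicate 1, or without IL-10- replicate 2, both had an adjusted exact permutation p of 0.0429. In each case a further ratio also came to 0.0429 (Itgav to Itgb1 in the first, Itgb7 to Itgb1 in the second). The lower adjusted p is therefore no added support for the Itga4 ratios. Over the 8 removals of a library their adjusted p was 0.0429 to 0.114. The ratio of Itgb7 to Itgb1 was 0.0439 ± 0.0107 and 0.0761 ± 0.0359 (exact permutation p = 0.2, adjusted 0.24). Itga4 was below Itgb1 and above Itgb7 in all 8 libraries. This order in FPKM rests on the exonic lengths, 13978 bases for Itga4 and 4081 for Itgb1. In reads per library Itga4 had 4324 to 10670 and Itgb1 5749 to 8113.

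**Figure D2:**
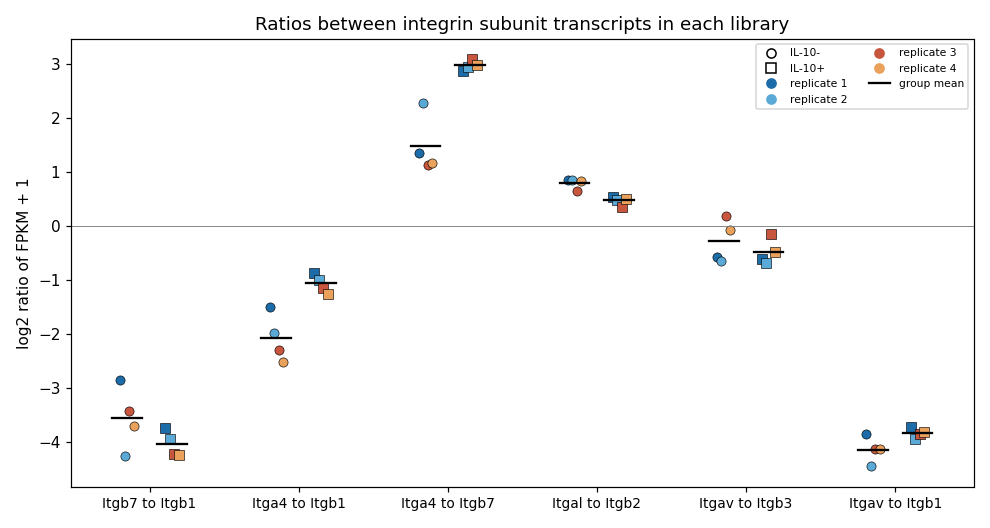
log2 ratio of FPKM + 1 (vertical axis) between 2 integrin chains for 6 pairs, with circles for IL-10-, squares for IL-10+, colours for the replicate number and lines for group means. The groups separate for Itga4 to Itgb1, Itga4 to Itgb7 and Itgal to Itgb2, and they overlap for the other 3 pairs.

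The LFA-1 chains were among the most abundant of the 10 genes. Itgal, the αL chain (chromosome 7, 127296260 to 127335138), had 68.8, 66.1, 58.9 and 59.5 FPKM in IL-10+ and 75.8, 73.4, 60.5 and 61.8 FPKM in IL-10- replicates 1 to 4. In both groups replicates 1 and 2 were high and 3 and 4 low, and the groups overlapped. The log2 change was -0.10 (SE 0.0968, limma adjusted p = 0.541), and the adjusted p with the block was 0.0447, or 0.129 with the block after median-of-ratios scaling. Itgb2, its β2 partner (chromosome 10, 77530252 to 77565708), had 46.8, 47.0, 45.6 and 41.4 FPKM in IL-10+ and 41.4, 40.3, 38.1 and 34.1 FPKM in IL-10- replicates. The lowest IL-10+ and the highest IL-10- library were nearly equal. Itgb2 changed by a log2 of 0.23 (SE 0.0793, limma adjusted p = 0.0786; 0.00150 with the block) and was higher in 4 of 4 numbers. The ratio of Itgal to Itgb2 was 1.40 ± 0.0773 in IL-10+ and 1.76 ± 0.117 in IL-10- cells, lower in IL-10+ cells in every number (log2 difference -0.32, exact permutation p = 0.0286, adjusted 0.0571, or 0.0429 without IL-10- replicate 1 or without IL-10- replicate 2). Here too the adjusted p is set by how many of the 6 ratios reach the smallest exact p.

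Itgav and Itgb3, the chains of the vitronectin receptor αVβ3, were near the low end. Itgav (chromosome 2, 83724397 to 83806916) had 3.01, 2.64, 2.82 and 2.67 FPKM in IL-10+ and 3.11, 2.25, 2.79 and 2.75 FPKM in IL-10- replicates 1 to 4. The groups lay on top of each other, with a log2 change of 0.03 (SE 0.0853, limma adjusted p = 0.865; 0.710 with the block). Itgb3 (chromosome 11, 104608000 to 104670476) had 5.13, 4.81, 3.23 and 4.09 FPKM in IL-10+ and 5.14, 4.10, 2.32 and 2.92 FPKM in IL-10- replicates. It was nearly equal in replicate 1 and higher in the IL-10+ library of the other 3 numbers, with a log2 change of 0.23 (SE 0.199, limma adjusted p = 0.473; 0.0439 with the block). Itga2b, the chain that pairs with β3 on platelets, did not exceed 0.455 FPKM in any library. The ratio of Itgav to Itgb3 was 0.664 ± 0.145 and 0.824 ± 0.305 (exact permutation p = 0.400), and that of Itgav to Itgb1 was 0.0527 ± 0.00428 and 0.0427 ± 0.00857 (exact permutation p = 0.0857, adjusted 0.129).

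As a share of the summed FPKM of the 18 α chains in the table, Itgal took 67.3% ± 1.32 in IL-10+ cells and 76.7% ± 2.29 in IL-10- cells, and Itga4 26.4% ± 1.56 and 16.6% ± 2.64 (SD, n = 4). Of the 7 β chains Itgb1 took 50.0% ± 1.67 and 57.7% ± 3.94, and Itgb2 42.7% ± 0.678 and 34.4% ± 1.87. The groups did not overlap in the share of any of these 4 chains. These shares are descriptions without a test, and those of 1 class add up to a fixed whole. The summed α level was 94.2 ± 8.58 against 88.7 ± 12.4 FPKM and the summed β level 105.8 ± 4.91 against 111.7 ± 4.76 FPKM. Among the 18 other integrin chains in the table, only Itga6, the α chain of laminin receptors, passed the filter on low values, at 1.34 ± 0.390 against 1.29 ± 0.351 FPKM (log2 change 0.02, limma adjusted p = 0.942). Itgb5, which pairs with αV, was under the filter, at 1.36, 1.01, 0.783 and 0.861 FPKM in IL-10+ and 0.138, 0.177, 0.211 and 0.268 FPKM in IL-10- replicates. In the fit without that filter its log2 change was 0.73 (limma adjusted p = 0.00299).

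Icam1, the ligand of LFA-1 and a textbook NF-κB target (chromosome 9, 21015985 to 21028817), did not pass the test without the block. Its values were 19.9, 18.8, 16.7 and 17.5 FPKM in IL-10+ and 23.4, 21.9, 19.1 and 19.0 FPKM in IL-10- replicates 1 to 4. IL-10+ replicate 1 lay above IL-10- replicates 3 and 4, and the other IL-10+ libraries lay below every IL-10- library. Each IL-10+ library was below the IL-10- library of its own number. The log2 change was -0.18 (SE 0.0893, limma adjusted p = 0.197), and the adjusted p with the block was 0.00493. Exons of Gm47079 on the opposite strand cover 11.7% of the exonic bases of Icam1, and Gm47079 had a mean of 0.0129 and 0.00763 FPKM.

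Cd44, the hyaluronan receptor of activated lymphocytes (chromosome 2, 102811141 to 102901665), rose in IL-10+ cells. Its values were 37.1, 37.1, 33.6 and 34.8 FPKM in IL-10+ and 27.5, 29.0, 23.3 and 26.2 FPKM in IL-10- replicates 1 to 4. The lowest IL-10+ library (33.6 FPKM) lay above the highest IL-10- library (29.0 FPKM). The log2 change was 0.42 (SE 0.0792, limma adjusted p = 0.00643; 0.000382 with the block), and no removal of a single library ended the call (highest limma adjusted p = 0.0255). A gene-level value does not show which variant exons of Cd44 were in the RNA.

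Spn, which encodes CD43, had the largest change of the 10 genes (chromosome 7, 127132232 to 127137823). Its values were 25.6, 20.3, 16.3 and 20.9 FPKM in IL-10+ and 7.83, 6.80, 6.09 and 7.28 FPKM in IL-10- replicates 1 to 4. The lowest IL-10+ library was far above the highest IL-10- library. The log2 change was 1.44 (SE 0.129, limma adjusted p = 0.000112), with 1.59, 1.45, 1.29 and 1.41 within replicates 1 to 4, and it stayed called on removal of any single library (highest adjusted p = 0.000830). Across the 8 libraries the log2 levels most like those of Spn among 6666 genes were Sel1l (Pearson r = 0.995), Hspa2 (0.991) and Ern1 (0.990), which share the libraries and the difference between groups. Sel1l and Ern1 encode a degradation adaptor and the stress sensor IRE1α of the endoplasmic reticulum. For Itgb7, with the lowest log2 change, the likest were Pabpc1 (0.976), Etv6 (0.956) and Eml3 (0.956).

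**Figure D3:**
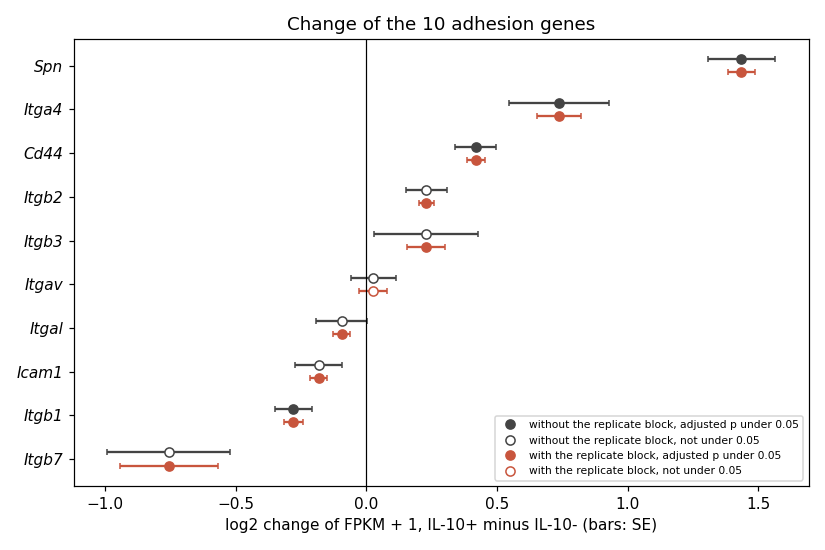
log2 change of FPKM + 1 (IL-10+ minus IL-10-, horizontal axis) for each gene, with bars for the SE, in dark grey without and in red with the replicate number as a block. Filled points have an adjusted p under 0.05. Spn stands at 1.44 and Itgb7 at -0.76, and Itgav is the one gene open in both fits.

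In order of mean level, IL-10+ cells had Itgal (63.3 FPKM), Itgb1 (52.8), Itgb2 (45.2), Cd44 (35.7), Itga4 (25.0), Spn (20.8), Icam1 (18.2), Itgb3 (4.32), Itgav (2.78) and Itgb7 (2.32). The values of Itga4 and Spn, of Spn and Icam1, and of Itgav and Itgb7 overlapped there, and those of other neighbours did not. In IL-10- cells Itgal (67.9 FPKM) and Itgb1 (64.4) overlapped at the top, and Itgb2 (38.5) and Cd44 (26.5) followed. Below them came Icam1 (20.9), Itga4 (14.9), Spn (7.0), Itgb7 (4.79), Itgb3 (3.62) and Itgav (2.72). There only Itgb1 and Itgb2, Itgb2 and Cd44, and Itga4 and Spn were neighbours without overlap.

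Genes around CD44 and CD43 moved in both directions. Of 13 tested partners 2 rose and 2 fell, beside 10.6% and 9.18% of all tested genes. With the block 5 partners rose and 3 fell, beside 20.4% and 33.3% of all tested genes. The median log2 change of the partners was 0.12. Selplg, which encodes the selectin ligand PSGL-1, rose from 18.5 ± 1.10 to 30.9 ± 0.831 FPKM (log2 change 0.71, limma adjusted p = 9.36e-05). The enzyme that builds the core O-glycan of mucins such as CD43, C1galt1, rose from 17.8 ± 0.691 to 29.0 ± 1.40 FPKM (adjusted p = 0.000112). Gcnt1, which branches that core, fell from 3.73 ± 0.490 to 1.89 ± 0.202 FPKM (adjusted p = 0.00108). Moesin, Msn, which ties CD43 and CD44 to actin, fell from 155.3 ± 5.45 to 127.0 ± 5.36 FPKM (log2 change -0.29, adjusted p = 0.0101).

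Of 23 tested genes of integrin activation and linkage 2 rose and 3 fell, beside 10.6% and 9.18% of all tested genes. With the block 4 rose and 11 fell, beside 20.4% and 33.3% of all tested genes. The median log2 change of the 23 genes was -0.09. Rap1a, a small GTPase that switches integrins on, rose from 67.1 ± 6.83 to 90.1 ± 6.18 FPKM (limma adjusted p = 0.0112), and its exchange factor Rapgef1 was the other that rose (log2 change 0.31, limma adjusted p = 0.0323). The Rapgef1 call was kept on removal of IL-10- replicate 1 and lost on removal of any of the other 7 libraries (highest 0.0861), and without a filter on low values its adjusted p was 0.0523. Apbb1ip, the adaptor RIAM between Rap1 and talin, fell from 12.5 ± 1.67 to 8.75 ± 1.34 FPKM (adjusted p = 0.0295, lost in 4 of 8 removals of a library, highest 0.0789). The Apbb1ip call was also lost without a filter on low values (limma adjusted p = 0.0674) and within replicates 1 and 2 alone (0.0513). Filamin A, Flna, which binds integrin tails, fell from 65.3 ± 3.99 to 47.4 ± 2.27 FPKM (adjusted p = 0.00197). Paxillin, Pxn, fell from 26.6 ± 1.44 to 21.2 ± 0.850 FPKM (adjusted p = 0.00787). Talin, Tln1, and kindlin-3, Fermt3, which engage β tails directly, had log2 changes of 0.12 and -0.20 and passed with the block only. Ilk was listed at 0.0391 FPKM or less in every library, and Taf10 on the opposite strand covers 76.7% of its exonic bases.

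Only 4 of the 18 integrin ligands measured passed the filter on low values, and 1 rose and 1 fell (2 and 2 with the block). Of all tested genes 10.6% rose and 9.18% fell (20.4% and 33.3% with the block). Tgfb1, whose latent form is opened by αV integrins, fell from 31.5 ± 4.25 to 20.1 ± 1.80 FPKM (limma adjusted p = 0.00353). The laminin chain Lamc1 rose from 9.29 ± 0.571 to 11.6 ± 0.987 FPKM (adjusted p = 0.0303), a call lost in 5 of 8 removals of a library (highest 0.0897). The Lamc1 call was also lost without a filter on low values (limma adjusted p = 0.0519). Within replicates 1 and 2 alone (0.0899) and within replicates 3 and 4 alone (0.171) it was lost too. Vcam1 and Madcam1, which encode ligands of α4β1 and α4β7 found on other cells, reached at most 0.0124 and 0.356 FPKM. Under the filter, F11r, the junctional molecule JAM-A, stood at 0.686, 0.833, 0.650 and 0.496 FPKM in IL-10+ and 0.255, 0.290, 0.307 and 0.175 FPKM in IL-10- replicates 1 to 4, without overlap. In the fit without the filter its log2 change was 0.40 (limma adjusted p = 0.0122).

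**Figure D4:**
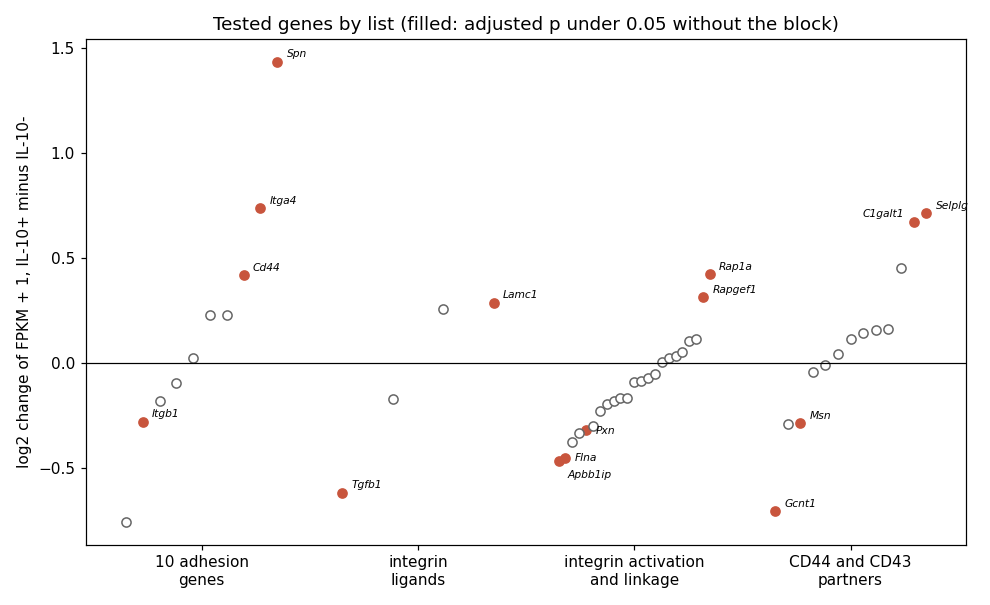
log2 change of FPKM + 1 (IL-10+ minus IL-10-, vertical axis) of the tested genes in the 10 adhesion genes and 3 lists around them, sorted by size within each, with filled and named points for an adjusted p under 0.05 without the block. Spn at 1.44 is the highest point and Itgb7 at -0.76 the lowest.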

How the data were processed

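Titles gave groups and replicate numbers, and columns were matched through the sample descriptions. The deposited values are FPKM made by the authors. HISAT2 2.1.0, HTSeq 0.6.0 and build mm10 are listed, per the submitters' processing notes. Annotation release, strand setting and shared-read handling: not given in the sources used here. Symbols and positions came from GENCODE M21 (GRCm38), which held 26517 of 26589 identifiers. In each library 93.5% to 93.6% of values above 0 gave whole reads within 0.05 with exonic lengths, which yielded the library totals. The 10 genes were backed by 386 to 13939 reads per library, leaving out Itgb7. No libraries of a group were near-copies (chi-square over degrees of freedom, on recovered reads, 9.00 to 82.9).

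The test was limma (version 3.58.1, R 4.3.3) with a variance trend on log2(FPKM + 1). It covered 11329 genes that reached 1 FPKM in 4 or more libraries. Changes on this scale understate those of low genes. The planned fit had no replicate block. Same-numbered libraries deviated together from their group means (correlations 0.71, 0.58, 0.62 and 0.70). They were therefore taken as pairs in the alternatives with the block only, on the data's evidence, since the labels do not state it. Numbers 1 and 2 also deviated together across the groups (0.28 and 0.35), as did 3 and 4 (0.43 and 0.37). Between these 2 sets the correlations were -0.61 to -0.38. Ratios were compared with exact permutation tests, which ignore the numbers. The fit without the block was tested on simulated data in which libraries varied independently. Deviations shared by a replicate number were therefore not covered. Named were the 10 genes, Il10 and Prdm1, in each of 4 lists up to 4 called genes of largest change (or the 2 most abundant), and the 3 genes most like the extremes. Others were named after their values were seen. The genes, lists and rules were chosen with earlier results of these data known. A gene of the list of CD44 and CD43 partners is not reported here and was left out of that list's counts.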

Additional observations from a re-analysis of the deposited data

Results flagged for a closer look

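In 60 groups of 4 libraries, 2 had a library set far from the other 3 by Dixon's criterion, and chance flags about 1 group in 20. For Tgfb1, IL-10+ replicate 1 stood at 22.8 FPKM, and the other IL-10+ libraries lay between 18.9 and 19.5 FPKM. For the log2 ratio of Itgal to Itgb2, IL-10- replicate 3 stood at 0.65, and the other IL-10- libraries lay between 0.84 and 0.86.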

How the results depend on the processing

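Of the 10 genes 4 were called. The count was 9 with the replicate block, 8 with the block after either rescaling (median of ratios, or totals that leave out immunoglobulin and mitochondrial genes), 2 within replicates 1 and 2, 5 within replicates 3 and 4, and 2 to 4 when 1 library was left out. It was 2 without IL-10+ replicate 1, IL-10+ replicate 3 or IL-10- replicate 3. Over all genes 2236 were called, 6083 with the block, 5719 and 5663 with the block and these scalings, 1106 within replicates 1 and 2, 2647 within replicates 3 and 4, and 1621 to 2055 when 1 library was left out. The scalings moved the median of all genes by up to 0.03. Higher calls were 53.5% of all calls, 62.3% with those reduced totals and 38.0% with the block. Spn kept its direction and call in all 20 alternatives and Cd44 in 19, the exception being replicates 1 and 2 alone (adjusted p = 0.0623). On removal of 1 library the log2 change of Itgav ranged from -0.038 (IL-10- replicate 2) to 0.075. It was -0.0019 when IL-10+ replicate 1 was removed, and replicates 3 and 4 alone gave -0.010. That of Itga6 ranged from -0.050 to 0.13, and it was -0.039, -0.050, -0.033 and -0.046 on removal of IL-10+ replicate 1, IL-10+ replicate 2, IL-10- replicate 3 and IL-10- replicate 4. When 1 library was left out, the log2 difference of the ratios was 0.87 to 1.21 for Itga4 to Itgb1, 1.38 to 1.76 for Itga4 to Itgb7, -0.37 to -0.29 for Itgal to Itgb2, 0.20 to 0.40 for Itgav to Itgb1, -0.33 to -0.05 for Itgav to Itgb3 and -0.71 to -0.24 for Itgb7 to Itgb1. The adjusted exact p was under 0.05 (0.0429) for Itga4 to Itgb1, Itga4 to Itgb7 and Itgal to Itgb2 without IL-10- replicate 1 or 2, for Itgav to Itgb1 without IL-10- replicate 1 and for Itgb7 to Itgb1 without IL-10- replicate 2. It is set by how many ratios reach the smallest exact p, so it does not rank single ratios. With the replicate block (sign flips within numbers) these differences were unchanged by construction and no p can be under 0.125. The cause of the changes was not tested. A pseudocount of 0.1 or 0.5, a filter at 5 FPKM, and no variance trend changed no call of the 10 genes that could still be fitted.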

Other observations

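Besides Itgb5, 3 integrin chains under the filter on low values had groups that did not overlap. Among all genes above the filter this held for 25.2%, and the share among genes under the filter was not taken. The count is therefore no result about integrin chains. Itga3, an α chain of laminin receptors, was at 0.217, 0.257, 0.279 and 0.244 FPKM in IL-10+ and 0.106, 0.0676, 0.112 and 0.0993 FPKM in IL-10- replicates 1 to 4. Itgam, the αM chain that pairs with β2 on myeloid cells, stood at 0.327, 0.278, 0.193 and 0.213 against 0.597, 0.593, 0.530 and 0.418 FPKM. Itgb4, a β chain of laminin receptors, was at 0.0469, 0.0918, 0.0691 and 0.0815 against 0.112, 0.145, 0.192 and 0.162 FPKM. In the limma fit without the filter the adjusted p was 0.00254 for Itga3, 0.0186 for Itgam and 0.0448 for Itgb4. These genes were picked after their values were seen.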
